A study of Homo sapiens with 3 samples.

Results

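The kinesin motor genes were examined in the human neuroblastoma cell line BE(2)-C after knockdown of WDR5, a core protein of the histone H3 lysine 4 methyltransferases. Members were the genes whose symbol in the array's annotation starts with KIF and a digit or with KIFC and a digit, with 1 antisense transcript of a kinesin locus dropped. This gave 42 of the 14884 named genes, each read by its probe set with the highest mean over the 3 arrays. The partner KIFBP and the non-motor subunit KIFAP3 are not members.

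The groups were WDR5 siRNA-1, WDR5 siRNA-2 and control siRNA, each with a single HuGene-2_0-st array of cells 40 hours into the treatment. All 3 groups share the MYCN-amplified background of the line and its culture medium, and whether the cultures were independent is not stated. Without replicates no value carries an error. Each ratio below is a difference between 2 arrays on the log2 scale, and both ratios to control use the same control array. WDR5 itself stood at 7.90 with each WDR5 siRNA and at 9.46 with control siRNA, a log2 ratio of -1.56. Both WDR5 siRNA arrays held exactly the same value for it, a tie of the kind described below. How alike the knockdowns were thus cannot be read from these values. Of 15 listed neuroblastoma markers, 13 were measured and 13 kept, with log2 levels on the control array between 7.29 and 12.8. In 6 of these 13 the WDR5 siRNAs lay on opposite sides of control, beside 25.2% of all kept genes. The widest apart were DBH (-0.81 for siRNA-1 and 0.51 for siRNA-2 on the log2 scale) and CHGA (-0.47 and 0.73). CHGB, GATA2, HAND1 and PHOX2A were closer to control, HAND1 with -0.06 and 0.16. Of the Schwann and stromal markers 4 of 10 were measured, SOX10 and S100B at the same 6.96 and 6.83 on every array and LUM at 10.40 and 9.86 with the WDR5 siRNAs against 8.88. Of the leukocyte and endothelial markers 5 of 9 were measured, and only CD68 was above 6.78.

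Kinesins are motors that hydrolyse ATP to move along microtubules or to take microtubule ends apart. One branch of the family builds the spindle, moves chromosomes and completes cytokinesis, and its genes are transcribed mainly in dividing cells. Another carries vesicles, organelles and RNA, above all along the axons and dendrites of neurons. Neuroblastoma cells are both proliferating and of the neuronal lineage, so both branches of the family bear on them.

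Of the 42 genes, 31 had a mean log2 level at or above 6.78, the median of all named genes, and were kept for counts. Kept members comprised 13 of 14 mitotic kinesins, 12 of 15 transport kinesins, 2 of 6 kinesins of cilia and hedgehog signalling, and 4 of 7 others. The 23 background probe rows on these arrays ran from 1.75 to 9.26, with a median of 4.61. Above their highest value on all 3 arrays lay 9 mitotic and 2 transport kinesins. The table holds many exact ties between arrays: 7 of the 31 kept kinesins had the same value on at least 2 arrays, as did 41.1% of all kept genes. A ratio of exactly 0 therefore does not show that a transcript was unaffected.

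Every kept mitotic kinesin was lower than control with both WDR5 siRNAs, 13 of 13, whereas 22.3% of all kept genes were lower with both by any amount. That share is held down by ties, since 2569 of the 7442 kept genes had a ratio of exactly 0 with at least 1 siRNA. Among the mitotic kinesins 0 did, but KIF18A and KIF18B each read 1 shared value on both WDR5 siRNA arrays. For siRNA-1 the median of their log2 ratios was -0.20 and for siRNA-2 it was -0.40, and that of all kept genes was 0 for each. The differences were mostly small. The ratios ran between -0.68 and -0.11 with siRNA-1 and between -0.68 and -0.09 with siRNA-2. The full count also rests on the class list. KIF2A, a depolymerase of spindle poles, was classed with the other kinesins, and it was above control with both siRNAs, at log2 ratios of 0.02 and 0.06. The count of 13 held after quantile normalization and after centring each array on its median, where 18.8% and 17.6% of all kept genes were lower with both. Over all kept genes 1343 were higher and 1658 lower with both as deposited, 3521 and 1397 after quantile normalization, and 3721 and 1313 after centring. In these bulk RNA samples, fewer dividing cells and less RNA per cell cannot be told apart.

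KIF14, which acts at the midbody in the last step of cytokinesis, stood at 9.65 with siRNA-1 and 9.68 with siRNA-2, against 10.29 with control siRNA. The arrays of both WDR5 siRNAs were thus close together and below control, 1.56-fold and 1.52-fold lower. It was the 1 kinesin at least 1.5-fold lower with both siRNAs, among 31 kept, a share of 3.23% beside 0.847% of all kept genes. Over all kept genes 63 were lower and 46 higher by that rule, and 49 and 56 after centring. With arrays centred on their median, its log2 ratios were -0.60 and -0.56, and the second no longer reached 1.5-fold, which is 0.58 on the log2 scale.

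KIF2C, a depolymerase that frees wrongly attached microtubules from kinetochores, had levels of 7.92 and 7.99 with the WDR5 siRNAs and 8.56 with control siRNA. At 1.55-fold and 1.48-fold lower, it came just short of the limit with siRNA-2. KIF4A, a chromosome-bound motor that also organises the spindle midzone, stood at 9.30 and 9.54 against 9.98 in control, 1.61-fold and 1.36-fold lower. Its retrocopy KIF4B read 8.31 and 8.74 against 8.83. Probes of these near-identical genes can read each other's transcripts, so the KIF4B value is uncertain.

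Another pair of motors was lower mainly with siRNA-2. KIFC1, a minus-end motor that focuses spindle poles and clusters extra centrosomes, read 9.08 on the siRNA-1 array and 8.72 on the siRNA-2 array, against 9.39 with control siRNA. KIF15, which helps keep the spindle bipolar, stood at 9.71 and 9.36 against 10.01. KIFC1 was 1.24-fold and 1.60-fold lower and KIF15 1.24-fold and 1.57-fold lower. KIFC1 has 4 probe sets: 2 gave the same values, the third gave log2 ratios of -0.32 and -0.73, and the fourth, at a level of 6.22, was tied on all arrays. The mean of the 4 gave KIFC1 log2 ratios of -0.24 and -0.52, short of 1.5-fold.

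KIF20A, KIF23 and KIF20B, motors of late mitosis, were also lowest with siRNA-2, whereas KIF4A had its lowest value with siRNA-1. KIF20A, which delivers the Aurora B complex to the midzone, stood at 11.20 with siRNA-1 and 10.88 with siRNA-2, against 11.40 with control siRNA. KIF23, the motor subunit of the centralspindlin complex, had levels of 10.19 and 9.93 against 10.32. KIF20B, a motor of cytokinesis, read 9.71 and 9.53 against 9.86. For all 3 genes siRNA-2 gave the lowest array, with log2 ratios of -0.52, -0.40 and -0.34, while siRNA-1 gave -0.20, -0.13 and -0.15.

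The remaining mitotic motors were close to control. KIF11, which slides spindle microtubules apart and is the target of antimitotic inhibitors, stood at 11.00 and 10.95 against 11.17. KIF22, a motor that pushes chromosome arms from the poles, read 9.938 and 9.937 against 10.11. KIF18A and KIF18B, which limit the length of kinetochore and astral microtubules, had tied WDR5 siRNA arrays, at 9.01 against 9.12 and at 9.83 against 9.99. No ratio of these 4 genes was beyond -0.23 with either siRNA. KIF2B, a relative of KIF2C, was below the filter level and read 6.72 and 6.86 against 6.72.

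**Figure D1:**
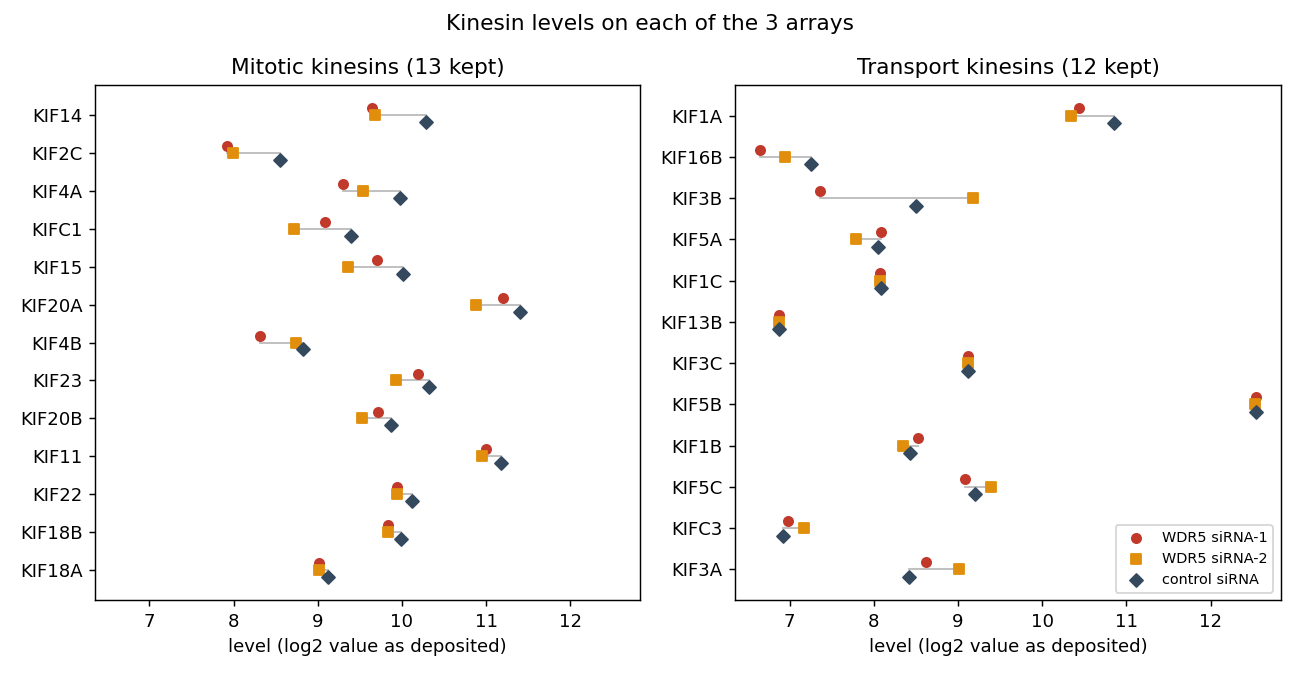
Log2 level (x axis, values as deposited) of the 13 kept mitotic kinesins and 12 kept transport kinesins (rows) on the WDR5 siRNA-1, WDR5 siRNA-2 and control siRNA arrays, 1 symbol per array. In the mitotic panel both WDR5 symbols lie left of the control symbol in all 13 rows, and in the transport panel they do so in 3 of 12.

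The promoters of the mitotic kinesins were read because these genes were lower together. Genes of the late cell cycle often carry the cell cycle genes homology region (CHR), bound by the MuvB complexes, and a CCAAT box, bound by NF-Y. Windows of 250 bases before to 50 after the gene start came from RefSeq (GRCh38.p14), in which 34 of the 42 kinesins had at least 1. The search took TTTGAA or TTCGAA for the CHR and CCAAT for the box, on either strand, and no matches overlap in the windows printed here. CHR letters were in 11 of 14 mitotic kinesins and in 1 of 11 transport kinesins, compared with 15.3% of the 5986 kept genes with a window. The box was in 11 of 14 and in 4 of 11, beside 43.5% of kept genes. Both were present in 10 of 14 and in 1 of 11, beside 6.62%. The listed partners of the mitotic motors had similar shares, with CHR letters in 12 of 16, the box in 13 of 16 and both in 10 of 16, so the letters are not particular to the motors.

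**Figure D2:**
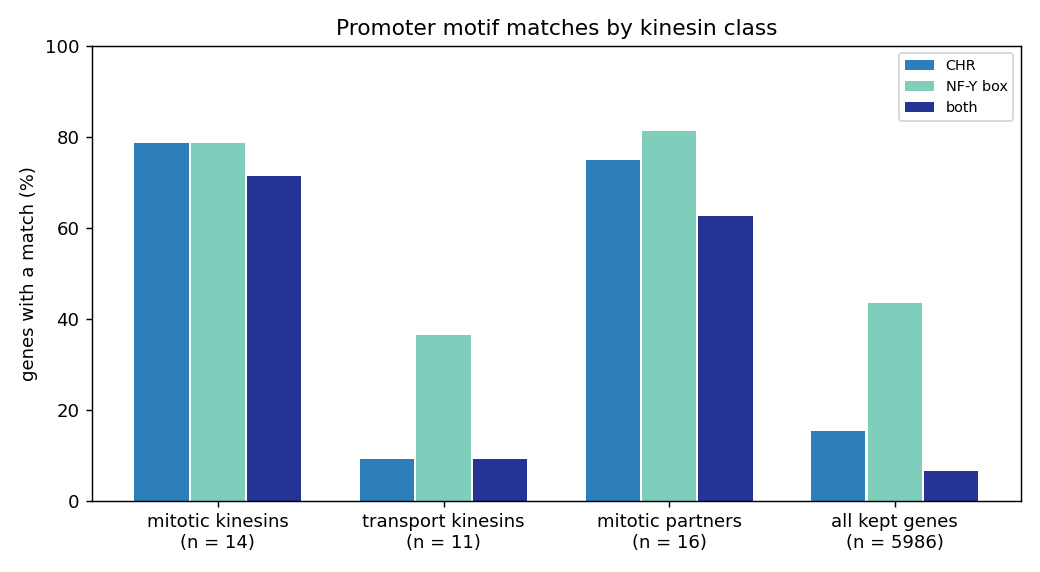
Percentage of genes (y axis) whose promoter window holds the CHR, the NF-Y (CCAAT) box or both, for 14 mitotic kinesins, 11 transport kinesins, 16 partners of the mitotic motors and 5986 kept genes. The mitotic kinesin bars stand at 78.6%, 78.6% and 71.4%, those of the partners at 75%, 81.2% and 62.5%, and those of all kept genes at 15.3%, 43.5% and 6.62%.

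The windows below show mitotic motors with and without these letters and 2 transport motors for comparison, with matches in capitals. KIF14 (chr1:200620702-200621001, minus strand) has its box 22 bases before the start and its CHR letters at base 2 after it. KIF4A (chrX:70289854-70290153, plus strand) has both at 58 and 34 bases before the start. KIF20A (chr5:138178862-138179161, plus strand) has 2 boxes and no CHR letters, and KIF2C (chr1:44739587-44739886, plus strand) has neither, although it was among the lowest of the class. KIF5B (chr10:32056376-32056675, minus strand), a transport motor level on all arrays, has both, with the CHR letters 140 bases before the start. KIF3B (chr20:32277401-32277700, plus strand) has a box only.
KIF14: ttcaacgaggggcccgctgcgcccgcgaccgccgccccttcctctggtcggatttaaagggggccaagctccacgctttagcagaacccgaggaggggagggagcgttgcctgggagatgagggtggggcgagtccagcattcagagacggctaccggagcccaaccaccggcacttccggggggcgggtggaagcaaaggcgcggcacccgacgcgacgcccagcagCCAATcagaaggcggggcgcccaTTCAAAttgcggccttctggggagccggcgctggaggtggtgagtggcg
KIF4A: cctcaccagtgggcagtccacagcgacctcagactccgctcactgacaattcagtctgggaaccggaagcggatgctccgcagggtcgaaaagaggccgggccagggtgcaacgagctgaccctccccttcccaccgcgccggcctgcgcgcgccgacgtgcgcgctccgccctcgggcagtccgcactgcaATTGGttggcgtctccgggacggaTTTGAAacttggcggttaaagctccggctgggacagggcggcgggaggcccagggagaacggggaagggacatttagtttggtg
KIF20A: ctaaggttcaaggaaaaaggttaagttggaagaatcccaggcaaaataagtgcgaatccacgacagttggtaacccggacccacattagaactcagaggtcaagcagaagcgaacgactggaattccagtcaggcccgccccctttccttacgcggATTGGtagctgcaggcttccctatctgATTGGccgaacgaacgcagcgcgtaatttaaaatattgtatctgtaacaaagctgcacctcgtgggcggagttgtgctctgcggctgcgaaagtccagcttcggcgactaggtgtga
KIF2C: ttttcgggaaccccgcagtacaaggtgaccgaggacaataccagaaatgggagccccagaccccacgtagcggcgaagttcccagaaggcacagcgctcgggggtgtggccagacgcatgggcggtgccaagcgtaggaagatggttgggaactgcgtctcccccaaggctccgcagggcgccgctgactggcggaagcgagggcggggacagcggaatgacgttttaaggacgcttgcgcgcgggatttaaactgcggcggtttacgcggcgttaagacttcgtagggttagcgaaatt
KIF5B: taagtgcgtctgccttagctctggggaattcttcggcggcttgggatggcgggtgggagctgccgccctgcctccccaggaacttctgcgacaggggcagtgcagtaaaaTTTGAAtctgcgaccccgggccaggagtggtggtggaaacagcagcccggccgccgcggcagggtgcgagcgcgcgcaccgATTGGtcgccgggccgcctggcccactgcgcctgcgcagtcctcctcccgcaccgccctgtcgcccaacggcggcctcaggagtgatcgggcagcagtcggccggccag
KIF3B: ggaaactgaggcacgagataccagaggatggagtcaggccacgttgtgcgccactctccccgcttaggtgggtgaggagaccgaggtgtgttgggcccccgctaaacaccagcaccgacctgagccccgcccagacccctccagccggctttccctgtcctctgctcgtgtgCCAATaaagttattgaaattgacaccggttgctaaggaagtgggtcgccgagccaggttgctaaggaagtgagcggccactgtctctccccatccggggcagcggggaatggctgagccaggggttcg

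Read beside the levels, mitotic motors with both elements had large and small differences. KIF14, KIF4A and KIFC1 hold both, with log2 ratios of -0.64 and -0.61, -0.68 and -0.44, and -0.31 and -0.68. KIF20B, KIF23 and KIF4B hold both as well, KIF15 has CHR letters only and KIF20A the box only. KIF18A, KIF18B, KIF22 and KIF11 hold both elements with no ratio beyond -0.23, while KIF2C without either was 1.55-fold and 1.48-fold lower. KIF2B, below the filter level and also without either, had log2 ratios of 0 and 0.13. Whether the letters bear on the levels was not tested. A match is only a run of letters, and no binding was measured here.

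The transport kinesins showed no common direction. The median ratio of the 12 kept members, on the log2 scale, was 0 for siRNA-1 and -0.0011 for siRNA-2. Of the 12 genes, 3 (25%) were lower with both siRNAs, beside 22.3% of all kept genes, and 2 (16.7%) were higher with both, beside 18.0%. Ratios of opposite sign were found in 5 (41.7%), beside 25.2% of all kept genes, and 2 were tied with control on all arrays. The mitotic median minus the transport median was -0.20 for siRNA-1 and -0.40 for siRNA-2, on the log2 scale. All 13 mitotic kinesins were below the transport median with each siRNA, but the ranges overlapped, since transport genes such as KIF1A, KIF16B and KIF3B reached as low as mitotic members with at least 1 siRNA. None of the 12 passed 1.5-fold with both siRNAs on the same side of control, and no kinesin of any class was higher by that rule, beside 0.618% of all kept genes.

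KIF3B was the member that differed most between the siRNAs. KIF3A and KIF3B are the paired motor subunits that, with KIFAP3, form a transport complex of axons and of the cilium, and KIF3C is an alternative partner of KIF3A. KIF3B stood at 7.36 with siRNA-1 and 9.18 with siRNA-2, against 8.50 with control siRNA, 2.21-fold lower with the first and 1.60-fold higher with the second. KIF3A read 8.62 and 9.01 against 8.42, higher with both, and with siRNA-2 its 1.499-fold difference stopped just under the limit. After quantile normalization and after centring, that KIF3A log2 ratio was 0.65 and 0.63, past 1.5-fold. KIFAP3 differed in the other direction from KIF3B, at 9.48 and 8.83 against 9.12, and KIF3C read 9.12 on every array. The subunits of the complex thus had no shared direction with either siRNA, and whether the KIF3B difference recurs in other cultures was not tested. Neuroblastoma markers such as DBH and CHGA also had opposite signs with the siRNAs, and their part in the KIF3B values was not tested.

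**Figure D3:**
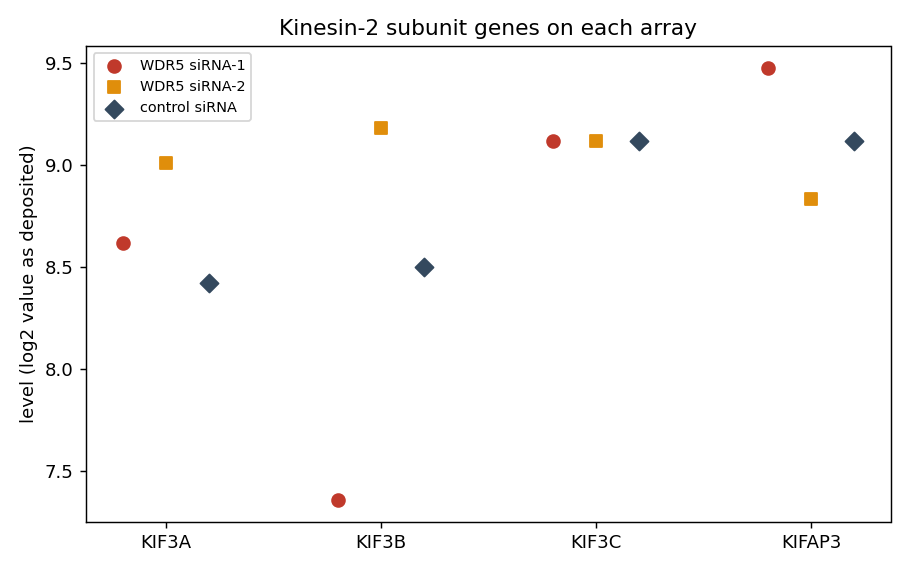
Log2 level (y axis, values as deposited) of the KIF3 subunit genes and KIFAP3 on the WDR5 siRNA-1, WDR5 siRNA-2 and control siRNA arrays, 1 symbol per array. KIF3B spans 7.36 to 9.18 with control at 8.50 between, and KIF3C is level at 9.12.

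KIF1A, the neuronal motor of synaptic vesicle precursors, was the transport kinesin with the largest shared difference. It stood at 10.43 with siRNA-1 and 10.35 with siRNA-2, against 10.85 with control siRNA, 1.34-fold and 1.42-fold lower. KIF16B, which moves early endosomes, stood at 6.65 and 6.94 against 7.26, and its 1.52-fold lower value with siRNA-1 was below the filter level and did not reach 1.5-fold after centring, at a log2 ratio of -0.56. KIF1C, a motor of vesicles and RNA, was lower by 0.01 with each. KIF1B, whose locus has been studied as a neuroblastoma tumour suppressor, read 8.52 and 8.35 against 8.43, on either side of control.

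The conventional kinesin heavy chains, which carry axonal cargo with the kinesin light chains, were near control. KIF5B read 12.54 with siRNA-1 and 12.53 with siRNA-2, against 12.53 with control siRNA. Its neuronal relatives KIF5A, at 8.09 and 7.79 against 8.04, and KIF5C, at 9.08 and 9.39 against 9.21, lay on both sides of control. KIFC3, a minus-end motor, read 6.98 and 7.18 against 6.92, and KIF13B, a motor of membrane cargo, had 6.88 on each array. Below the filter level were KIF13A, at 5.77 with each WDR5 siRNA against 6.09, and KIF17 and KIFC2, tied on all arrays at 6.45 and 6.46.

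Kinesins of cilia and hedgehog signalling gave few readable values. KIF24, which restrains cilium assembly at the centriole, stood at 8.51 and 8.49 against 8.66, a log2 ratio of -0.16 and -0.18, and it alone of the 4 in this class with a promoter window holds both elements. KIF7, a regulator of hedgehog signalling at the cilium tip, was tied at 7.04. KIF6, KIF9 and KIF19, which work in motile cilia, were below the filter level and within 0.07 of control. KIF27 was also below it, at 6.99 and 5.59 against 6.35, so it was above control on the siRNA-1 array and below it on the other.

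Among the other members, KIF21A, which restrains microtubule growth in axons, read 11.32 and 11.31 against 11.43. KIF2A, a depolymerase of spindle poles and of growing neurites, read 11.04 and 11.08 against 11.02, so unlike its relative KIF2C it was not lower. KIF26A and KIF26B, which lack a working motor cycle and act in signalling, had ratios between -0.13 and 0.07. KIF12, KIF21B and KIF25 were below the filter level and within 0.10 of control.

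**Figure D4:**
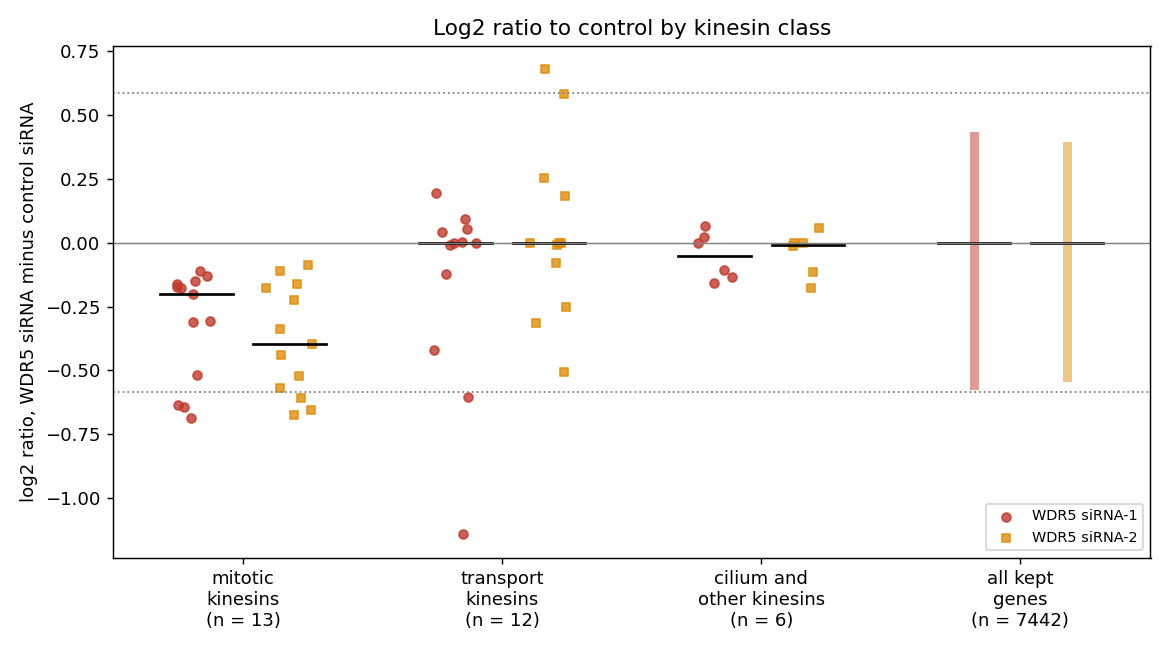
Log2 ratio of each WDR5 siRNA to control siRNA (y axis) for kept kinesins by class, 1 point per gene and siRNA, with black lines at the medians; bars for the 7442 kept genes span the 5th to 95th percentile and dotted lines mark 1.5-fold. The mitotic medians lie at -0.20 and -0.40 and all mitotic points are below 0.

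Counted by siRNA, 5 of the 31 kept kinesins were at least 1.5-fold lower with siRNA-1 (KIF14, KIF2C, KIF4A, KIF16B and KIF3B), a share of 16.1% beside 4.60% of all kept genes. With siRNA-2 there were 3 (KIF14, KIF15 and KIFC1), or 9.68% beside 4.00%. Higher by as much were 0 with siRNA-1, where all kept genes had 2.24%, and 1 with siRNA-2, KIF3B, where they had 2.19%. Directly compared, 1 kinesin, KIF3B, was at least 1.5-fold lower on the siRNA-1 array than on the siRNA-2 array (4.65% of all kept genes) and 0 were higher (4.21%). With counts this small and no replicate, the shares describe these arrays. When both WDR5 siRNA arrays were fitted as 1 arm in limma, 0 of 7442 genes had an adjusted p under 0.05, with 695 at an unadjusted p under 0.05. With 1 control array, the spread in that fit came only from differences between the 2 siRNA arrays. Its p-values thus depend on how alike the siRNAs were, and variation of the control was not estimated. KIF18A and KIF18B had small unadjusted values through tied arrays.

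Of 23 listed genes that work with the mitotic motors, 18 were kept. Lower with both siRNAs were 13, a share of 72.2% beside 22.3% of all kept genes, and 0 were higher with both, beside 18.0%. With siRNA-1, 3 of the 18 were above control and 2 were tied with it. The medians were -0.14 and -0.22, and none was 1.5-fold lower with both. NUSAP1, a spindle microtubule-bundling protein, stood at 10.90 and 11.13 against 11.60, and INCENP, the scaffold of the Aurora B complex, at 8.95 and 9.25 against 9.56. CDK1, the mitotic kinase, read 9.66 and 9.72 against 10.02, and CCNB2, a mitotic cyclin, 11.09 and 10.87 against 11.36. RACGAP1, the partner of KIF23, was below the filter level. CENPE, a mitotic kinesin under another name, was not analysed here.

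Of 15 listed proliferation markers, all kept, 12 were lower with both siRNAs, a share of 80.0% beside 22.3% of all kept genes, and 0 were higher with both. The other 3 (BUB1, CCNA2 and TOP2A) were above control with siRNA-1. The medians of the list were -0.08 and -0.33, and centring the arrays left 9 of 15 lower with both. MKI67, the gene of the Ki-67 antigen, read 10.89 and 10.91 against 11.12, and MCM3, a replicative helicase subunit, 10.64 and 11.31 against 11.70. Of 17 kept transcriptional regulators of cell cycle genes, 7 (41.2%) were lower with both and 3 (17.6%) higher, beside 22.3% and 18.0% of all kept genes. E2F1, an activator of S phase entry, was 2.20-fold and 1.60-fold lower, and E2F7, a repressor of the same family, 2.69-fold and 1.57-fold lower. MYBL2, a MuvB partner, was at 10.61 with each against 10.93, a tie of the WDR5 siRNA arrays. FOXM1, another such partner, was at 10.04 and 10.39 against 10.48. The 3 higher with both were LIN54, with log2 ratios of 0.38 and 0.29, RB1, with 0.17 and 0.17, and TFDP2, with 0.05 and 0.06. The part of these genes and of cell number in the kinesin values was not tested.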

How the data were processed

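Total RNA of BE(2)-C cells was hybridised to Affymetrix HuGene-2_0-st arrays. The authors deposited a table of 53617 probe sets by 3 arrays. No scale is stated in it; the values, from 1.34 to 14.9, were taken as log2, on which all folds rest. The log2 values deposited by the authors were processed with MAS5, per the submitters' processing notes, which give no role for it. The remaining background correction, normalization and summarisation are not given in the sources used here. Array medians were 5.79, 5.79 and 5.81 for WDR5 siRNA-1, WDR5 siRNA-2 and control siRNA, and no scaling was added.

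The platform annotation named a single gene for 16098 probe sets, and any naming several genes were left out. Symbols were updated by Entrez identifier in RefSeq. The highest-mean probe set stood for a gene, and the 7442 genes at or above the median level were kept. Log2 ratios, counts at 1.5-fold and class medians were computed in Python 3.11.15 with pandas 2.3.3, and limma 3.58.1 was run as an alternative. The counting was tested on simulated data with planted shifts larger than the 1.5-fold limit and without tied arrays. That checks the counting step only and says nothing of small differences or ties. Precision is limited by 1 array per group. Kinesin classes, gene lists, promoter motifs and members were chosen with earlier results of these data known. Every kinesin is named, and up to 4 members of each other list by the smaller of the 2 absolute ratios. RACGAP1, BUB1, CCNA2, TOP2A, DBH, CHGA, FOXM1, MYBL2, LIN54, RB1, TFDP2, KIFAP3 and the promoter windows printed were chosen after their values were seen. Alternatives changed the filter, scaling, probe set rule, fold, class summary and class membership.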

Additional observations from a re-analysis of the deposited data

Results flagged for a closer look

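KIF3B lay 1.60-fold above control with siRNA-2 and 2.21-fold below it with siRNA-1, so that the siRNA-1 array was below the siRNA-2 array by a log2 difference of -1.82. KIF27, which is below the filter level, went the other way, with a log2 difference of 1.40. Its other probe sets lay lower: 1 was higher with both siRNAs, with log2 ratios of 0.99 and 0.39, and 1 had ratios of 0.10 and -0.16. With 1 array per siRNA neither difference was tested.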

How the results depend on the processing

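No paired analysis was possible because each group has 1 array. The mitotic median kept its direction in all 9 alternatives with each siRNA. It ran from -0.32 to -0.16 with siRNA-1 and from -0.44 to -0.35 with siRNA-2. As all 13 kept members were below control, only quantile normalization and centring could have turned that sign. With KIF2A added the medians were -0.19 and -0.37, although KIF2A itself was above control with both. The mitotic minus transport difference kept its direction in all 7, from -0.31 to -0.16 and from -0.44 to -0.37. Centring could not change that difference. The transport median stayed near 0 and had no stable sign. With siRNA-1 it was 0.024 with quantile normalization, 0.041 with centred arrays, -0.0035 with the mean of probe sets and 0.0023 without tied genes. With siRNA-2 it was 0.061 with quantile normalization, 0.044 with centred arrays, 0 with no filter and with the 75th percentile filter, and -0.0022 without tied genes. The transport class mean was further from 0 with siRNA-1, at -0.16 beside -0.32 for the mitotic class. With siRNA-2 these means were 0.045 and -0.38. The count of kinesins 1.5-fold lower with both siRNAs, 1 as reported, was 0 with centred arrays, 0 at 2-fold and 4 at a limit of 0.32 on the log2 scale (KIF14, KIF2C, KIF4A and KIF1A). Over all kept genes, 281 were lower and 184 higher at that lower limit, 7 lower and 6 higher at 2-fold, 30 lower and 33 higher with the 75th percentile filter, and 51 and 51 with quantile normalization; the last 2 settings removed the excess of lower genes (63 against 46). In limma, 0 genes and 0 kinesins passed in either direction, with 695 genes at an unadjusted p under 0.05. Leaving out tied genes and leaving out KIF4B were chosen after seeing the data. Adding CENPE could not be run. Most kept kinesins did not exceed the brightest background row on every array, which limits what small folds can show. Their means were at or above 6.78, while the median of the background rows was 4.61.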

Other observations

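Cytoplasmic dynein and dynactin, the minus-end transport machinery opposite to most kinesins, showed no common direction. Of 26 listed genes, 13 were measured and 12 kept, and the medians of their log2 ratios were -0.01 for siRNA-1 and 0.04 for siRNA-2; 3 (25%) were lower and 2 (16.7%) higher with both siRNAs, beside 22.3% and 18.0% of all kept genes, and none was 1.5-fold from control with both. DCTN2, a dynactin subunit, stood at 6.93 and 7.23 against 7.58 in control, NDE1, a dynein regulator, at 9.19 and 9.35 against 9.52, and DCTN5 at 12.62 and 12.38 against 12.84. DCTN6 was higher with both, at 11.91 and 11.86 against 11.61.

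Kinesin light chains and cargo adaptors had medians of 0 with each siRNA over 11 kept genes. In that list 1 of 11 genes was lower and 0 were higher with both siRNAs by any amount, beside 22.3% and 18.0% of all kept genes. Opposite signs were found in 3, beside 25.2%, and 7 had a ratio of exactly 0 with at least 1 siRNA. The lower gene was MAPK8IP2, a scaffold that links kinesin to JNK signalling, at 8.32 and 8.24 against 8.42. KLC1, the main light chain of neurons, read 9.29 and 9.27 against 9.29. Of 16 listed tubulin genes, none was among the probe sets that name a single gene, so they were not analysed here.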
